A study of Mus musculus with 15 samples.

Results

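Fatty acid oxidation and acyl-CoA hydrolysis are carried out by enzymes of the mitochondrial matrix and of peroxisomes, and 38 genes that encode them were followed here in the H3K4me3 maps of cultured brown adipocytes. The 38 genes were chosen by name, from their known functions, out of 21770 protein-coding genes of the GENCODE M39 annotation, and each matched 1 coding gene. The histone mark H3K4me3 (trimethylated lysine 4 of histone H3) was mapped by ChIP–seq in mBA cells, a murine brown adipocyte line that was described as primary in the sample labels and as immortalized preadipocytes, differentiated before use, in the methods of the study. The WT group was of wild type genotype and untreated, the WT + 2HG group was the same genotype given a cell-permeable 2-hydroxyglutarate dissolved in DMSO, and the CLPP-KO group lacked the mitochondrial matrix protease CLPP and was untreated. All cells grew in high glucose DMEM without pyruvate, and the CLPP-KO cells alone received uridine, so genotype and uridine cannot be told apart. Each group had 4 ChIP samples and 1 input sample. The authors called peaks on the 4 samples of a group together, so each group has 1 list, no spread between replicates can be given, and no difference between lists was tested.

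In β-oxidation, fatty acids enter mitochondria as carnitine esters and are shortened by repeated rounds of dehydrogenation, hydration, a further dehydrogenation and thiolysis. Peroxisomes run a related pathway on very long and branched chains, and acyl-CoA thioesterases release free fatty acids from CoA in the cytosol, mitochondria and peroxisomes. Brown fat burns fatty acids to make heat, and H3K4me3 lies around the start sites of active and poised genes as a narrow domain just inside the transcribed region.

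A gene was counted as marked when a peak overlapped the 2000 bp on either side of any of its annotated starts. The WT list held 12342 peaks, the WT + 2HG list 14059 and the CLPP-KO list 15118. Strength was given by the area under the curve that the peak caller writes for each peak. It was ranked as a percentile among the peaks of the same list (100 is the largest), since areas are not scaled between lists. Per the methods of the study, the caller combined p-values over the replicates to call peaks, so these ranks are not read counts. Among brown adipocyte markers, Ucp1, Dio2, Ppargc1a, Elovl3 and Cox8b had no promoter peak in any list, Cidea had one in WT + 2HG and CLPP-KO, Ebf2 in CLPP-KO, and Prdm16 in all 3. Of the general adipocyte markers, Adipoq and Fabp4 were unmarked in all lists, Plin1 was marked in WT + 2HG and CLPP-KO, Lipe in WT + 2HG, and Cebpa in all 3. Thus 7 of the 13 brown and general adipocyte markers lacked a promoter peak in every list, Ucp1 among them, as did 40.6% of coding genes. The study reported that UCP1 was strongly upregulated in differentiated wild type and CLPP-KO cells, so a missing peak does not describe expression. Clpp had a promoter peak in all 3 lists, at percentiles 39.9, 45.2 and 43.4 for WT, WT + 2HG and CLPP-KO, which does not check the knockout because the mark lies at the start site.

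The sequences upstream of 7 genes are shown first, as picked examples of marked and unmarked genes with the CpG content of their DNA. All are RefSeq promoter sequences from the GRCm38.p6 table, located in GRCm39 by exact match, written 5′ to 3′ on the coding strand and ended before the first annotated exon base, with CpG dinucleotides in capitals. Acot1 (chr12:84056026-84056255, plus strand) and Acot4 (chr12:84084903-84085080, plus strand) encode thioesterases, and a peak of all 3 lists reached into the stretch shown:
Acot1: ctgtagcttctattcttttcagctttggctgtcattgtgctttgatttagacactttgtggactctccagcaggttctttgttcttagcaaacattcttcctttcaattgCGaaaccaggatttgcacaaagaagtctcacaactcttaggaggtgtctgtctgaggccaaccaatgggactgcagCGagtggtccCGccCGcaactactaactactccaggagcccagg
Acot4: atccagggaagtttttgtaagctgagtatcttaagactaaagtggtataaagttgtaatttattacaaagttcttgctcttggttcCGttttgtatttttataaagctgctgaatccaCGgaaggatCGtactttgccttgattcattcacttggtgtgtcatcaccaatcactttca
Acot3 (chr12:84098668-84098917, plus strand) and Acot5 (chr12:84115848-84116097, plus strand) lie in the same thioesterase cluster, had promoter peaks in WT + 2HG and CLPP-KO alone, and no peak reached the stretch shown:
Acot3: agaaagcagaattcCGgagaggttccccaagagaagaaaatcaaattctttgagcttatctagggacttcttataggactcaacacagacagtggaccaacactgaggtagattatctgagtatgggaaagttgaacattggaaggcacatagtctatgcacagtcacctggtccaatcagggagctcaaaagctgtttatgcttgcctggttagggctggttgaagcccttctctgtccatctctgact
Acot5: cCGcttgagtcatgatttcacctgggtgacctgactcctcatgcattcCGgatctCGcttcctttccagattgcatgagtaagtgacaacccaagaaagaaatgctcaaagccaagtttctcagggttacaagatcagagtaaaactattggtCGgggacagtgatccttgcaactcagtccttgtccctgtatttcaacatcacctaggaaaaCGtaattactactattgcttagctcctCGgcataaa
Hadh (chr3:131065751-131066000, minus strand), the short-chain hydroxyacyl-CoA dehydrogenase, was marked over this stretch in all 3 lists, whereas Etfb (chr7:43093246-43093492, plus strand), a subunit of the electron transfer flavoprotein, and Ehhadh (chr16:21606585-21606834, minus strand), the peroxisomal bifunctional enzyme, had no peak in any list:
Hadh: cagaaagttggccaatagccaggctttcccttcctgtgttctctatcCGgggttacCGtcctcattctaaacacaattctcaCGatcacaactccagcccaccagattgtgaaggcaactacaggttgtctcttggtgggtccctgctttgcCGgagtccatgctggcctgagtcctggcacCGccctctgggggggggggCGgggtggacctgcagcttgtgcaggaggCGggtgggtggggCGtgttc
Etfb: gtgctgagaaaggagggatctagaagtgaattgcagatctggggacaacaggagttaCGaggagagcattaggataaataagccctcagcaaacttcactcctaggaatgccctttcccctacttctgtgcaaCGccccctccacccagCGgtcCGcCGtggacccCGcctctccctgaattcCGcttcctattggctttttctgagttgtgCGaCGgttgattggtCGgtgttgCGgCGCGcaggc
Ehhadh: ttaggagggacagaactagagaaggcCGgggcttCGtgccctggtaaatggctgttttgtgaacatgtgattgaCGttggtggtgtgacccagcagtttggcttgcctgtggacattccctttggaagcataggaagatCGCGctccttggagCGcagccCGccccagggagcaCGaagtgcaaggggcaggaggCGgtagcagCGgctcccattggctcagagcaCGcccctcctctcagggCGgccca
The unmarked Etfb and Ehhadh stretches held 13 and 12 CpG and the marked Hadh stretch 8. These stretches end before the first exon, and the order depends on that. In 300 bases around the canonical start the counts were 17 at Etfb, 14 at Ehhadh and 17 at Hadh. Over that span the median was 15 CpG for the genes marked in all lists and 8 for the unmarked genes. The Acot3 stretch held 1 CpG and the Acot5 stretch 6, against 4 in Acot1 and 3 in the shorter Acot4 stretch.

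The WT list marked 27 of the 38 genes, and the WT + 2HG and CLPP-KO lists marked 32 each. Over all coding genes the shares marked were 51.3%, 56.4% and 58.2%, respectively. The same 27 genes were marked in all 3 lists, where 50.6% of coding genes were. A further 5 genes, Decr2, Acox3, Scp2, Acot3 and Acot5, were marked in WT + 2HG and CLPP-KO but not in WT. They were 5 of the 11 genes without a WT peak, whereas 9.74% of the 10611 coding genes without a WT peak were marked in both other lists. The remaining 6 genes, Cpt1b, Cpt1c, Etfb, Acox2, Ehhadh and Abcd2, were marked in no list, which was so for 40.6% of coding genes. None of the 38 was marked in a single list, or in WT and lost from another list.

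These promoter peaks ranked below those of marked coding genes at the median. The median percentile of the marked genes was 44.9 (WT), 50.0 (WT + 2HG) and 52.5 (CLPP-KO), against 59.3, 60.6 and 62.0 over the marked coding genes. Below the median peak of the list lay 17 of 27 marked genes in WT, 16 of 32 with 2HG and 14 of 32 in CLPP-KO, and 1 gene, Crat, lay above percentile 90 in each list. Of the marked genes, 9 in each list had their strongest peak within the promoter window of another coding gene as well. The strongest peak of Hadha and Hadhb was a single peak, with its summit upstream of Hadha and in intron 1 of Hadhb. No shares over coding genes are given for these counts of low-ranked, high-ranked and shared peaks, so they describe these genes alone.

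**Figure D1:**
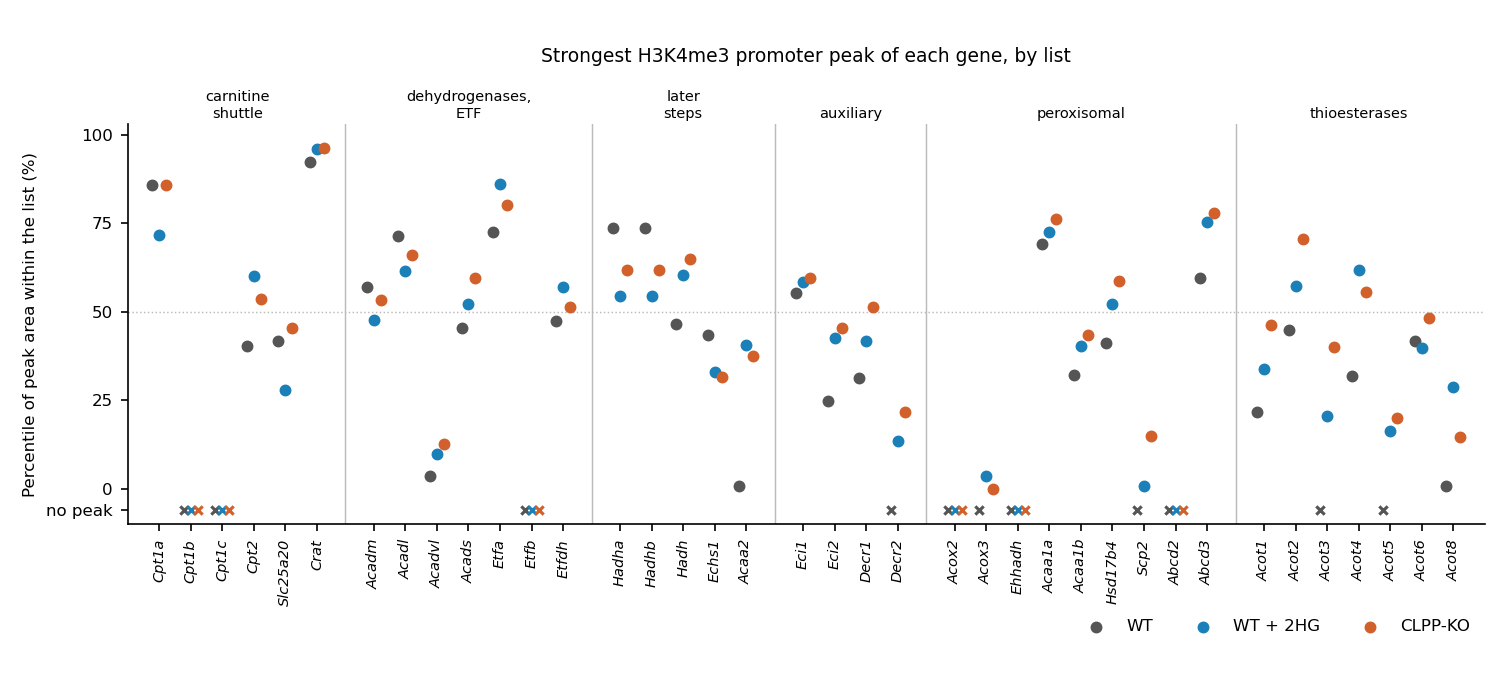
Percentile of the area of the strongest promoter peak (vertical axis, % within the list) for each of the 38 genes, ordered by function, with 1 point per list and a cross where no peak lay in the promoter window. Crat and Cpt1a stood highest in WT, at 92.3 and 85.8, Acadvl, Acaa2 and Acot8 lowest, and crosses in all 3 colours mark the 6 genes without a peak.

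The carnitine shuttle moves long-chain acyl groups into the matrix, and 4 of its 6 genes were marked in all 3 lists. Cpt1a, the rate-controlling carnitine palmitoyltransferase of the outer membrane, carried a peak over intron 1 (chr19:3373002-3374285 in WT), at percentile 85.8, 71.6 and 85.8 in the WT, WT + 2HG and CLPP-KO lists. Its peak measured 1284, 1097 and 1422 bp in these lists, so both rank and width were lowest in WT + 2HG. A second, weaker Cpt1a peak further into intron 1 stood at 18.6 in WT and at 31.3 and 31.9 in the other lists. Cpt2, the palmitoyltransferase of the inner membrane, had its WT peak at chr4:107780320-107780837, with percentiles of 40.2, 60.2 and 53.7 and widths of 518, 758 and 687 bp for WT, WT + 2HG and CLPP-KO. Both lists without WT exceeded WT in rank and in width at Cpt2. Slc25a20, the carnitine-acylcarnitine translocase (chr9:108539267-108539825 in WT), ranked at 41.7, 27.8 and 45.5, with widths of 559, 659 and 632 bp. Its peak in WT + 2HG was wider than in WT although it ranked lower. Crat, the carnitine acetyltransferase, had the widest and highest ranked peak of all 38 genes (chr2:30305020-30306865 in WT, at 1846, 1895 and 1919 bp and percentiles 92.3, 95.9 and 96.4). That peak spanned the start of the neighbouring Ptpa as well, and the part of each gene in it cannot be told apart.

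Cpt1b, the carnitine palmitoyltransferase of muscle and brown fat, and Cpt1c, its neuronal relative, had no peak within 2000 bp of a start. They lay just outside the window: the nearest peak to Cpt1b was 2826, 2755 and 2845 bp away in the WT, WT + 2HG and CLPP-KO lists, and covered the start of Chkb. The nearest peak to Cpt1c lay 2093, 2339 and 2237 bp from a start, inside the gene body. With a window of 3000 bp both genes counted as marked in all 3 lists. At the inner edge stood Acot3, whose summits lay 1652 bp (WT + 2HG) and 1603 bp (CLPP-KO) downstream of its nearest start.

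Among the acyl-CoA dehydrogenases and the electron transfer proteins that take up their electrons, 6 of 7 genes were marked in all 3 lists. Acadm and Acadl, the medium- and long-chain dehydrogenases, ranked lower in both lists than in WT. Acadl (chr1:66901585-66902619 in WT) stood at percentile 71.4 (WT), 61.4 (WT + 2HG) and 66.2 (CLPP-KO), with widths of 1035, 852 and 1088 bp. Acadm stood at 57.1, 47.7 and 53.5. By the summit p-value in place of the area, the CLPP-KO difference of Acadl turned positive. Acads, the short-chain dehydrogenase (chr5:115256801-115257604 in WT), ranked at 45.4, 52.3 and 59.6 with widths of 804, 639 and 805 bp. Acadvl, the very long-chain dehydrogenase of the inner membrane, had 1 of the weakest peaks, at percentile 3.62, 9.91 and 12.6 in the WT, WT + 2HG and CLPP-KO lists (chr11:69905656-69906129 in WT, with widths of 474, 424 and 575 bp). The window of Dlg4, on the other side of a shared start region, held that peak too. With a window of 3000 bp a stronger peak entered, and Acadvl then stood at 73.9, 54.5 and 51.1, lower in both lists than in WT.

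Etfa and Etfb encode the subunits of the electron transfer flavoprotein, and Etfdh the oxidoreductase that passes the electrons to ubiquinone. Etfa (chr9:55418768-55419511 in WT) ranked at 72.5 (WT), 86.2 (WT + 2HG) and 80.1 (CLPP-KO), with widths of 744, 992 and 928 bp. Etfb was unmarked in every list, and the nearest peak, at the neighbouring Vsig10l, was 9000, 7875 and 7818 bp from an Etfb start. So the partners of this heterodimer differed in every list. The 1000 bp around the Etfb start held no stretch of at least 100 bp with another copy in GRCm39 at 98% identity. Whether reads mapped uniquely there was not tested. Etfdh had 2 peaks in each list, the stronger upstream of its start, in the window of 4930579G24Rik, at percentiles 47.5, 57.0 and 51.3.

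All 5 genes of the later mitochondrial steps were marked in every list. Hadha and Hadhb, the subunits of the trifunctional protein that are read from opposite strands of 1 promoter, shared a peak (chr5:30360064-30360878 in WT) at percentile 73.7, 54.6 and 61.7 in the WT, WT + 2HG and CLPP-KO lists. This was a difference of −19.1 points in WT + 2HG, the lowest of all the genes, and of −12.0 points in CLPP-KO. The peak was nonetheless widest in CLPP-KO, at 1574 bp against 815 bp in WT and 840 bp in WT + 2HG, where it extended 804 bp past the canonical start of Hadha against 117 bp in WT and 108 bp with 2HG. Echs1, the short-chain enoyl-CoA hydratase (chr7:139695725-139696499 in WT), also ranked lower in both lists, at 43.5, 33.1 and 31.7, with widths of 775, 610 and 701 bp, and its window was shared with Paox. Hadh (chr3:131065098-131065931 in WT) ranked higher in both, at 46.7, 60.5 and 64.8, and was wider in both, at 834, 932 and 1174 bp. Acaa2, the mitochondrial thiolase, showed the highest difference from WT of the 27 genes in both lists: its WT peak of 168 bp stood at percentile 0.835, and the peaks of 615 bp (WT + 2HG) and 724 bp (CLPP-KO) stood at 40.6 and 37.6. Both of these lists also held a second Acaa2 peak over the first exon, at percentiles 24.9 and 32.3, which the WT list lacked. At a summit p-value of at most 1e-05 the WT peak of Acaa2 did not pass, and the gene was then marked in WT + 2HG and CLPP-KO alone. With each peak given to its nearest start, of any annotated gene, Acaa2 was marked in CLPP-KO alone.

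The auxiliary enzymes rearrange the double bonds of unsaturated chains. Eci1 and Eci2, enoyl-CoA isomerases, and Decr1, the mitochondrial dienoyl-CoA reductase, were marked in all lists. Eci2 (chr13:35177573-35178115 in WT) ranked at 24.8 (WT), 42.7 (WT + 2HG) and 45.3 (CLPP-KO), with widths of 543, 819 and 648 bp. Decr1 (chr4:15944952-15945575 in WT) ranked at 31.4, 41.7 and 51.5, with widths of 624, 792 and 747 bp. Eci1 differed from WT by 3.06 points in WT + 2HG and 4.26 points in CLPP-KO. Decr2, the peroxisomal dienoyl-CoA reductase, had no WT peak, the nearest being at Nme4, 4554 bp away. Its peak in WT + 2HG (chr17:26309023-26309373, 351 bp) stood at percentile 13.4 and that in CLPP-KO (chr17:26308796-26309409, 614 bp) at 21.7.

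Of the 9 peroxisomal genes, 4 were marked in all lists, 2 were marked in WT + 2HG and CLPP-KO, and 3 in none. Abcd3, an ABC transporter that carries acyl-CoA into peroxisomes, had 1 of the widest peaks of the set (chr3:121608108-121609301 in WT, at 1194, 1294 and 1269 bp) and ranked at 59.7, 75.4 and 78.0 in the WT, WT + 2HG and CLPP-KO lists. Hsd17b4, the D-bifunctional protein, ranked at 41.2, 52.3 and 58.6, while its peak measured 649, 618 and 557 bp. Acaa1a and Acaa1b, peroxisomal thiolases, ranked at 69.1, 72.6 and 76.3 and at 32.3, 40.4 and 43.3, respectively, and the Acaa1b peak (chr9:118985634-118986203 in WT) measured 570, 832 and 733 bp. A weaker peak in the Acaa1a window lay upstream, towards Myd88. The order of WT, WT + 2HG and CLPP-KO was thus the same at these 4 genes, but once only peaks common to all lists were ranked, Acaa1b lay below WT in both lists and Acaa1a below it in WT + 2HG.

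Acox3, a peroxisomal oxidase of branched chains, and Scp2, a peroxisomal thiolase and sterol carrier, were marked by weak peaks. The Acox3 peak in WT + 2HG (chr5:35740415-35740934, 520 bp) stood at percentile 3.63. That in CLPP-KO (chr5:35740463-35740715, 253 bp) stood at 0.126, with an area of 202 against a smallest area of 200.04 in that list. Scp2 stood at 0.982 in WT + 2HG (chr4:107975537-107975804, 268 bp) and at 15.1 in CLPP-KO (chr4:107975472-107975825, 354 bp). With the lists cut to equal size by area, Acox3 and Scp2 were marked in none of them. Acox2, the oxidase of bile acid intermediates, Ehhadh and Abcd2, an ABC transporter of very long chains, were unmarked throughout. Their nearest peaks lay at other genes: at Kctd6 for Acox2, 31464 bp away in WT, at Map3k13 for Ehhadh, 6445 bp away, and at Kif21a for Abcd2, 121956 bp away.

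The thioesterase genes Acot1 to Acot6 lie in a tandem cluster on chromosome 12, all read from the plus strand, and Acot8 lies on chromosome 2. In WT, 5 of the 7 were marked, and all 7 were marked in WT + 2HG and in CLPP-KO. Their median percentile among the marked genes was 32.0 (WT), 34.0 (WT + 2HG) and 46.3 (CLPP-KO). Acot2, the mitochondrial member and the first gene of the cluster (chr12:84034586-84035443 in WT), ranked at 44.9, 57.4 and 70.4 with widths of 858, 864 and 1090 bp. Acot1, its cytosolic relative (chr12:84056217-84056647 in WT), ranked at 21.7, 34.0 and 46.3 with widths of 431, 672 and 572 bp. Both followed the same order of lists, with CLPP-KO highest. Acot4, a peroxisomal enzyme that acts on dicarboxylic acyl-CoA (chr12:84085077-84085783 in WT), ranked at 32.0, 61.8 and 55.6 with widths of 707, 851 and 830 bp, and was highest in WT + 2HG. Gm49366 shares its promoter window.

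Acot3 and Acot5, peroxisomal thioesterases next to Acot4, had no WT peak within 10 kb: the nearest was that of Acot4, 13135 bp and 30316 bp away. The Acot3 peak lay in exon 2, in coding sequence, at percentile 20.7 in WT + 2HG (chr12:84100287-84100898, 612 bp) and 40.1 in CLPP-KO (chr12:84100177-84100940, 764 bp). With a window of 1000 bp, or with each peak given to its nearest start alone, Acot3 was marked in no list. The Acot5 peak lay in exon 1, at percentile 16.5 in WT + 2HG (chr12:84116346-84116859, 514 bp) and 20.1 in CLPP-KO (chr12:84116259-84116839, 581 bp). Acot6, at the far end of the cluster, ranked at 41.7, 39.8 and 48.1, the smallest differences among the 5 thioesterase genes marked in WT. These genes are close relatives. Second copies in GRCm39 were sought for stretches of at least 100 bp in the CLPP-KO peaks of Acot1 to Acot6. None was found at 98% identity or more, and whether reads mapped uniquely there was not tested. Acot8, a peroxisomal enzyme of broad range, had a WT peak at percentile 0.810 (chr2:164647251-164647677, 427 bp), against 28.9 in WT + 2HG and 14.7 in CLPP-KO, where the peaks measured 631 and 528 bp. That peak lay upstream, in the window of Zswim3, and a second peak over intron 1 of Acot8 was present in WT + 2HG and CLPP-KO, at percentiles 8.97 and 8.62, but not in WT.

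**Figure D2:**
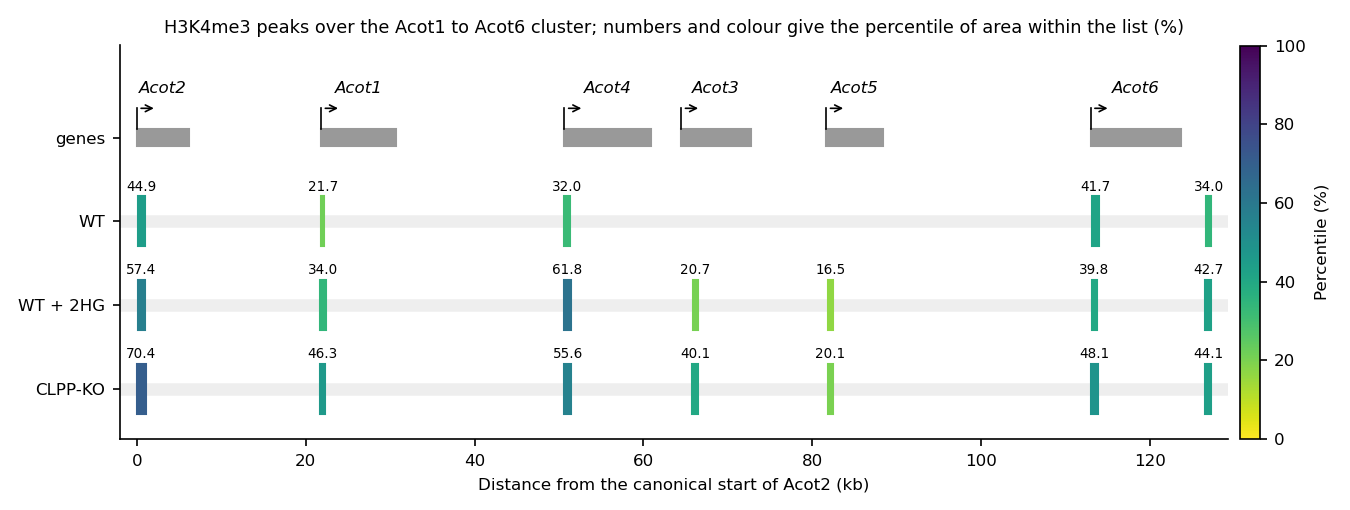
Map of the Acot1 to Acot6 cluster, with distance from the canonical start of Acot2 on the horizontal axis (kb), genes in the top row with arrows in the direction of transcription, and the peaks of each list below, labelled and coloured by their percentile in that list. Peaks at Acot3 and Acot5 appear in the WT + 2HG and CLPP-KO rows and not in the WT row, and the peak past the end of Acot6 lies in none of the 6 promoter windows.

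Set against WT over the 27 genes marked in all lists, 19 ranked higher in WT + 2HG and 8 lower, and the same direction was seen at 64.4% of coding genes. In CLPP-KO 22 ranked higher and 5 lower, against 69.8% higher among coding genes. The median difference was 8.09 points in WT + 2HG (range −19.1 to 39.7) and 8.999 points in CLPP-KO (range −12.0 to 36.8), and it was 3.69 and 5.27 points over coding genes. A percentile at least 10 points above WT was found at 12 genes in WT + 2HG and at 13 in CLPP-KO, and at 32.0% and 36.1% of coding genes. A percentile at least 10 points below WT was found at 6 and 3 genes, respectively, and at 9.70% and 6.56% of coding genes. Hadha and Hadhb, which share a single peak, are counted separately in both lists, as are coding genes that share a peak. The difference varied with the starting rank among coding genes as well. Of the genes up to percentile 25 in WT, the median difference in WT + 2HG was 17.9 points for 5 of the genes and 14.7 points over coding genes, and in CLPP-KO it was 20.5 and 17.4 points. Between percentiles 25 and 50 in WT lay 12 of the genes. Their median difference was 9.94 points against 9.27 over coding genes in WT + 2HG, and 13.8 against 12.3 points in CLPP-KO. Among genes between percentiles 50 and 75 in WT, it was −3.16 points for 8 of the genes against 3.63 points over coding genes in WT + 2HG. In CLPP-KO it was 0.323 against 5.36 points. Above percentile 75 it was −5.25 points for 2 of the genes against −0.296 points over coding genes in WT + 2HG. In CLPP-KO it was 2.09 against 0.0848 points.

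The direction depended on how peaks were ranked: a list with more weak peaks raises, by construction, the percentile of every stronger peak in it. Ranked only among peaks that overlapped a peak in both other lists, the median difference was −0.53 points in WT + 2HG and 0.90 points in CLPP-KO, with 13 genes of 27 higher in WT + 2HG and 15 of 27 in CLPP-KO. Over coding genes the same ranking gave medians of −1.21 and −1.51 points, with 44.7% and 43.3% higher. With lists of equal size, the median differences of the genes were 2.60 and 3.05 points. Across 4 rankings (all peaks, equal-sized lists, common peaks and the summit p-value), 12 genes were higher than WT in WT + 2HG each time: Cpt2, Crat, Etfa, Etfdh, Hadh, Acaa2, Hsd17b4, Abcd3, Acot1, Acot2, Acot4 and Acot8. Another 7 were lower each time: Cpt1a, Slc25a20, Acadm, Acadl, Hadha, Hadhb and Echs1. Of the 11057 coding genes marked in both lists, 39.0% were higher and 26.0% lower each time. In CLPP-KO 12 genes were higher in all 4 rankings, namely Cpt2, Crat, Acads, Hadh, Acaa2, Decr1, Acaa1a, Hsd17b4, Abcd3, Acot1, Acot2 and Acot4, and 4 were lower, namely Acadm, Hadha, Hadhb and Echs1, against 37.5% and 20.9% of coding genes. Acot2 is an example of the first kind: ranked among common peaks it stood 4.65 points above WT in WT + 2HG and 18.2 points in CLPP-KO. Hadha and Hadhb, which share a single peak and are counted separately, are examples of the second, at −28.9 and −23.5 points by that ranking.

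**Figure D3:**
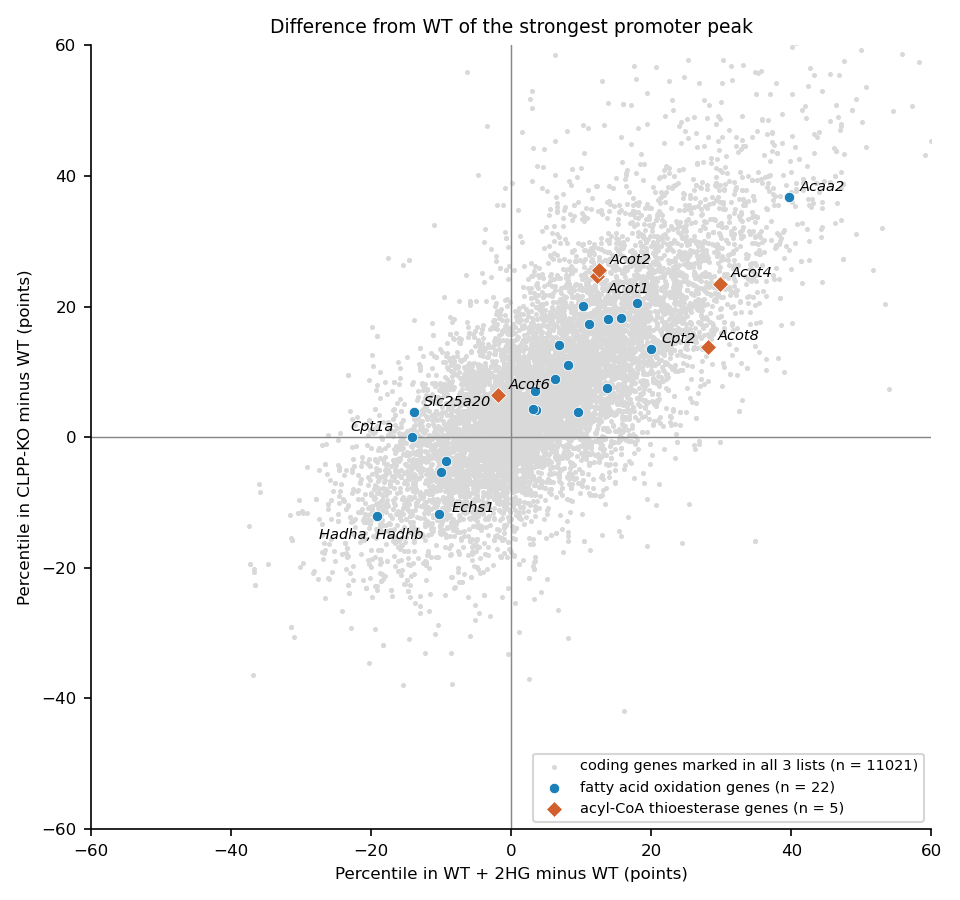
Difference in percentile from WT in WT + 2HG (horizontal axis, points) and in CLPP-KO (vertical axis, points) for the 27 genes marked in all lists, over the 11021 coding genes so marked in grey, of which 30 lie beyond the axes. Both axes subtract the same WT list, so the slope of the cloud is partly built in. The coloured points lie within the cloud, with Acaa2 at the upper right and Hadha and Hadhb at the lower left.

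The summit was downstream of the canonical start at 22 of 27 marked genes in WT and at 27 of 32 in either other list, and the median summit was 229.0 bp downstream, 239.0 bp and 257.0 bp in the WT, WT + 2HG and CLPP-KO lists. The strongest peak covered the canonical start itself at 16, 19 and 21 genes. No shares over coding genes are given for these counts of summits and starts. Summits upstream of the canonical start were found for Crat, Etfdh, Hadha, Acaa2 and Acot8 in every list. Of these, 4 shared the peak with a neighbouring coding gene, and Acaa2 did not. With each peak given to the nearest start of any annotated gene, Acaa2 kept a peak in CLPP-KO alone. Widths ran from 168 to 1846 bp in WT, with medians of 707.0 bp (WT), 677.0 bp (WT + 2HG) and 740.0 bp (CLPP-KO).

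The strongest peak was wider than in WT at 20 of 27 genes in WT + 2HG, against 71.8% of coding genes, and at 23 of 27 in CLPP-KO, against 71.5%. The ratio of widths to WT had a median of 1.08 (WT + 2HG) and 1.197 (CLPP-KO), where coding genes had 1.10 in both. Acaa2 was wider in both lists, and the shared peak of Hadha and Hadhb was wider mainly in CLPP-KO. Hsd17b4 was narrower than WT in both lists and ranked higher in both.

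**Figure D4:**
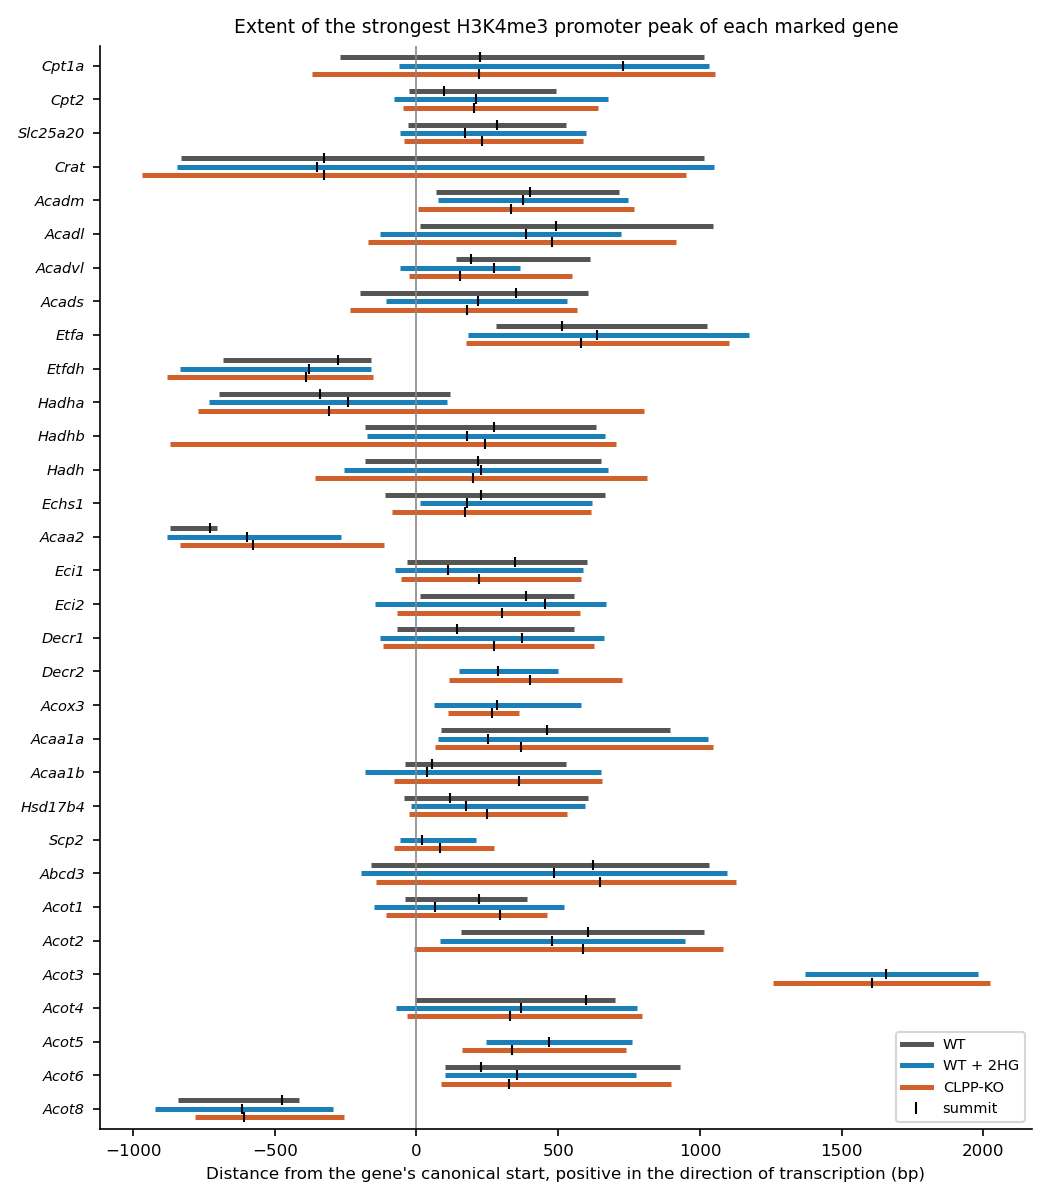
Extent of the strongest promoter peak of each of the 32 marked genes in each list, as bars from the first to the last base relative to the canonical start (horizontal axis, bp, positive in the direction of transcription), with the summit as a tick. Most bars lie from the start into the gene, Acot3 lies more than 1000 bp downstream, and the bars of Etfdh, Acaa2 and Acot8 lie wholly upstream.

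CpG content was set beside the marking as a property that the choice of genes did not use. Over 300 bases around the canonical start in GRCm39, the CpG ratio (observed over expected from the C and G content) had a median of 0.584 over the 38 genes and 0.517 over all coding genes. The 27 genes marked in all lists had a median of 0.590, below the 0.744 of coding genes so marked. The 5 genes marked in WT + 2HG and CLPP-KO alone ranged from 0.128 at Acot3 and 0.235 at Decr2 to 0.826 at Acox3, around the coding median of 0.604. Among the 6 unmarked genes, Acox2 (0.0701) and Cpt1b (0.0952) lay below the median of 0.196 of unmarked coding genes, on either side of its lower quartile of 0.0932. Etfb (0.715), Cpt1c (0.588), Ehhadh (0.520) and Abcd2 (0.445) were above the upper quartile of 0.346 of that class.

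**Figure D5:**
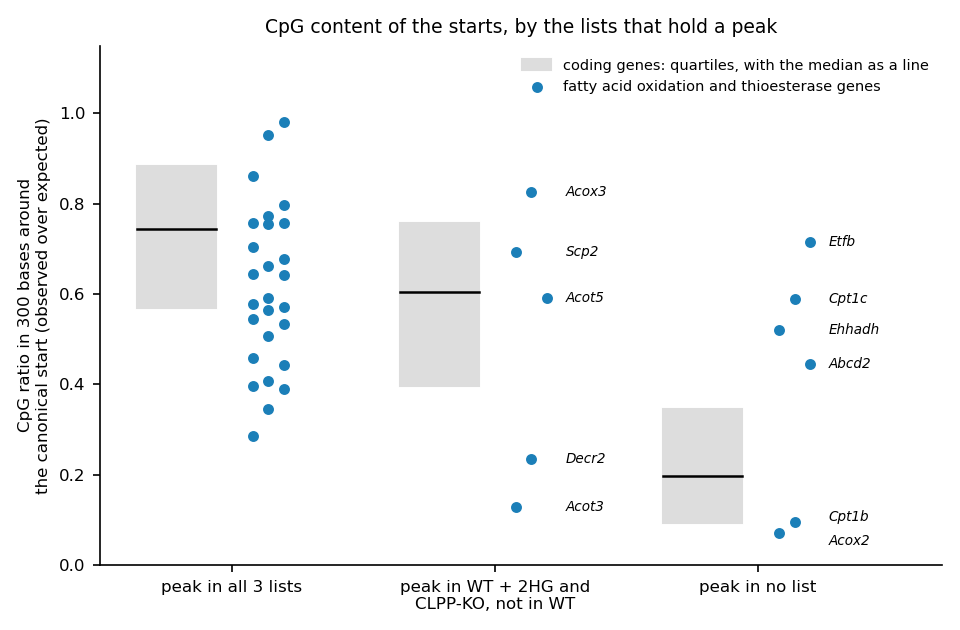
CpG ratio (vertical axis, observed over expected) in the 300 bases around the canonical start, by the lists that hold a promoter peak; points are the genes described here and grey boxes the quartiles of coding genes of the same class with their median. The unmarked Etfb, Cpt1c, Ehhadh and Abcd2 lie above the box of unmarked coding genes, and Acox2 and Cpt1b lie near its lower edge.

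RefSeq promoter sequences, 250 bases before to 50 after a start, were given for 31 of the 38 genes, in 35 windows. Entries for Cpt1b, Crat, Acaa2, Decr1, Hsd17b4, Abcd2 and Acot6 were not used here. The nuclear receptor motif AGGTCA was found on either strand in 31.4% of these windows and in 16.3% of all 32851 windows, and the genes with it were Cpt1a, Cpt1c, Acadm, Acadvl, Echs1, Scp2, Acot3, Acot4 and Acot5. Of these, Cpt1c was unmarked in every list and the others were marked in at least WT + 2HG and CLPP-KO. Acot3 and Acot5 each have 2 overlapping windows that count separately. The direct repeat 1, the binding element of PPAR heterodimers written as 2 copies of AGGTCA 1 base apart, was in 0 of the windows and in 0.0396% of all. The ERR motif TCAAGGTCA, which contains AGGTCA, was likewise in 0 windows and in 0.423% of all. Both exact motifs are so rare over all windows that 0 of 35 does not show that these genes lack such elements. CCAAT was in 54.3% and 37.4%, the GC box GGGCGG in 21 of the 35 windows and 35.7% of all, and the NRF1 core TGCGCATGC in 5.71% (Acadm and Etfdh) and 1.52%. A match of letters is a description of these windows alone.

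Of 28 further genes of the pathway, 21 were marked in WT, 25 with 2HG and 26 in CLPP-KO, 21 of them in all lists and 1, Acot10, in none. Acad8 and Phyh, an acyl-CoA dehydrogenase of branched chains and the peroxisomal hydroxylase of phytanoyl-CoA, were marked in WT + 2HG and CLPP-KO alone, as was Acacb, the carboxylase that makes the malonyl-CoA that inhibits Cpt1. Acot11 and Acot12 were marked in CLPP-KO alone and Pecr, a peroxisomal enoyl-CoA reductase, in WT + 2HG alone. The 5 acyl-CoA synthetases Acsl1, Acsl3, Acsl4, Acsl5 and Acsl6, which activate fatty acids, were marked in all lists. Ppara, a nuclear receptor that drives transcription of many oxidation genes, ranked at 49.5, 71.9 and 87.9 in the WT, WT + 2HG and CLPP-KO lists. Its peak measured 1165, 1593 and 1890 bp. The related Ppard hardly differed between lists, at 61.1, 61.4 and 63.1. Esrra, another nuclear receptor of these genes, ranked at 49.7, 62.6 and 49.3, and Mlycd, which degrades malonyl-CoA, at 88.8, 90.9 and 84.6.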

How the data were processed

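H3K4me3 ChIP–seq lists of 3 conditions (4 ChIP samples and 1 input each) were used. Per the labels and the methods of the study, the authors trimmed reads with fastp 0.23.4, mapped them with BWA 0.7.17 to mm39 (GRCm39) and called peaks with Genrich 0.6.1 on the replicates together. The deposited lists carry for every peak a score, a signal (the area above the calling threshold) and the −log10 p-value of its summit. The q field was −1 throughout and the smallest area was 200.02, which do not match the q-value threshold and the lower minimum area that the study's reporting summary gives, so the settings behind the lists, and with them what counts as marked, are not known. They hold no read counts, so depth could not be set beside the values, and no interval or test between replicates was possible.

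Genes and starts were taken from GENCODE M39. Peaks overlapping a 2000 bp window by at least 1 bp marked the gene, and 300 peaks on scaffolds named differently from the reference marked none. Percentiles are ranks of area within a list, and canonical starts are those tagged in the annotation. Copies were sought with blastn 2.17.0. The code was tested on simulated data with planted peaks and gave the same 11159 marked genes in WT as bedtools 2.31.1. The scripts ran in Python 3.11.15 with numpy 2.4.6, scipy 1.17.1, pysam 0.24.0 and matplotlib 3.10.9.

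The genes and lists were chosen with earlier results of these data known. Full values were given for genes not marked in all lists, with a difference of at least 10 points from WT, or among the 3 highest, lowest or widest in WT. Positions are those of WT or, where WT had no peak, of the other lists, and those on chromosome 18 were left out. Alternatives changed the window, the starts, the area or p threshold, the list sizes, the assignment of peaks and the ranking.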

Additional observations from a re-analysis of the deposited data

Results flagged for a closer look

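At 3 genes the percentile lay below WT in WT + 2HG and above WT in CLPP-KO. The excess over WT in CLPP-KO was 0.036 points at Cpt1a, 3.84 at Slc25a20 and 6.46 at Acot6. The median difference over coding genes was 5.27 points. The gap between CLPP-KO and WT + 2HG was 14.2 points at Cpt1a, 17.7 points at Slc25a20 and 8.30 points at Acot6. With 1 list per condition the difference was not tested. Ranked among the peaks common to all lists, the 3 genes lay below WT in both lists: Cpt1a by −20.3 and −4.06 points, Slc25a20 by −26.5 and −11.002 points and Acot6 by −13.5 and −7.75 points in WT + 2HG and CLPP-KO, respectively. In equal-sized lists the 3 genes also ranked lower in WT + 2HG than in CLPP-KO. By the summit p-value this held for Slc25a20 (26.7 against 53.4) but not for Cpt1a (63.6 against 61.3) or Acot6 (54.7 against 45.7), both higher in WT + 2HG. Of these 4 rankings, opposite directions from WT were found only with all peaks ranked.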

How the results depend on the processing

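No paired analysis was possible because each deposited list joins the 4 samples of its group, and leaving out single samples was not possible either. Of 142 values recomputed under the alternatives, 128 kept their direction and stayed within 1.5 times of the value reported. Ranking among common peaks turned the median difference of WT + 2HG from WT from 8.09 to −0.53 points, and moved that of CLPP-KO from 8.999 to 0.90 points and the median percentile in CLPP-KO from 52.5 to 41.1. Cutting the lists to equal size moved the median difference of WT + 2HG to 2.60 points, that of CLPP-KO to 3.05 points and the number of genes marked in WT + 2HG and CLPP-KO but not WT from 5 to 3. An area of at least 1000 gave 3 such genes too, but mostly others: Acot3 stayed, and Acaa2 and Acot1 entered because their WT peaks did not pass. At that area Decr2 and Acot5 were marked in CLPP-KO alone, and Acox3 and Scp2 in no list. It also moved the median percentile in WT from 44.9 to 30.8 and the median difference of WT + 2HG to 12.7 points. Less the median of coding genes, the difference of WT + 2HG from WT was 4.40 points and ran from 0.68 (common peaks) to 7.26 points (area of at least 1000), and that of CLPP-KO was 3.73 points and ran from 1.21 (summit p-value) to 4.02 points (area of at least 1000). With a window of 3000 bp Acadvl turned from higher to lower than WT in both lists. By gene, the class changed at 8 genes with that area, at 5 with a summit p-value of at most 1e-05, at 5 with each peak given to its nearest start, at 4 with equal lists, and at 1 or 2 with the other windows and with the annotated 5′ end alone. Acox3 and Scp2, whose peaks were near the smallest area in both lists and in WT + 2HG, respectively, lost at least 1 list under 3 or more of these. The same held for Acadvl, Acaa2 and Acot8. Depth could not be read from the lists, so an unmarked gene is one without a called peak, not one shown to lack the mark.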
